A study of Mus musculus with 2 samples.

Results

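DNA replication and S-phase genes were compared between leukaemic stem cells labelled PirBTM MLL-AF9 and leukaemic stem cells labelled wild type MLL-AF9. The 47 genes were chosen by name from the machinery of replication, and probes were assigned to them through the platform annotation of the array. All 47 had at least 1 named probe, 89 probes in all, among 19057 genes and 45281 probes on the array. Both samples were total RNA from mouse bone marrow on the C57BL/6J background at 9 weeks of age, and both were labelled MLL-AF9, the oncogene made when Kmt2a, a histone methyltransferase gene, joins Mllt3, which drives acute myeloid leukaemia. The sources used here do not give what the PirBTM genotype alters in Pirb, an inhibitory receptor gene of myeloid and B cells, how MLL-AF9 was introduced, how the cells were sorted or whether animals were pooled. No probe carried the name Pirb, so the Pirb part of the genotype labels could not be checked on the arrays. Genes of the MLL-AF9 programme were dimmer on the array labelled PirBTM than on the wild-type array. Of the 9 with a probe, 6 were above background in PirBTM and 9 in wild type. Their summed intensities were 1692 in PirBTM and 15540 in wild type. The brightest of them in PirBTM was Mef2c, with a log2 intensity of 9.98 in PirBTM and 11.91 in wild type. Hoxa9 had a log2 intensity of 6.08 in PirBTM and 10.74 in wild type, Meis1 had 7.54 in PirBTM and 11.84 in wild type, and Hoxa5, Hoxa10 and Eya1 were above background in wild type only.

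Each genotype had 1 array, so there is no spread between replicates and no test between the genotypes, and the values below compare 2 samples. The only error that could be measured was how far separate probes for 1 gene differ. It came to an SD of 0.30 on the log2 scale for 1 probe's ratio, called the measuring SD below, from 2944 genes that had several probes detected on both arrays. Among 14 such replication genes this SD was also 0.30. It leaves out the variation between animals, cell sorts and RNA preparations. Log2 ratios are PirBTM over wild type, so negative values mean lower signal in PirBTM, and intensities are background-corrected, quantile-normalised log2 values of the brightest probe of each gene. In RNA from a mixed or cycling population, fewer cells in S phase and less transcript per cell cannot be told apart.

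A replication origin is licensed in G1, when the origin recognition complex, Cdc6 and Cdt1 load rings of Mcm2 to Mcm7 onto DNA. At the start of S phase, Cdc45 and the GINS complex join the ring to form the active helicase, and the primase, the polymerases and the sliding clamp Pcna with its loader follow. Most of these genes are transcribed in late G1 and S phase under E2F factors, which the retinoblastoma protein holds back, so their transcripts are widely read as a sign of cycling cells. In MLL-AF9 leukaemia in the mouse, the cells that maintain the disease resemble cycling myeloid progenitors.

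The replication genes were mostly lower on the PirBTM array, and the differences were small. Of the 47 genes, 42 were above background on both arrays, at a detection p-value below 0.01, and the other 5 were above background on neither. Of the 42, 38 had a log2 ratio below 0, where 57.5% of the 9432 genes detected on either array did. Among the 7858 genes above background on both arrays, as all 42 were, 63.1% did. With cyclic loess normalisation 31 of 42 were below 0, beside 44.6% of the genes detected on either array. The median log2 ratio of the 42 was -0.62, against -0.15 over all genes and -0.22 over genes above background on both arrays. The difference from all genes was -0.47, and it lay between -0.56 and -0.36 under every processing tried. The lower quartile of all genes was also -0.62, and 22 of the 42 lay at or below it, whereas 0 lay at or above the upper quartile of 0.50.

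At least 1.5-fold lower signal in PirBTM was measured for 23 replication genes, where 25.4% of all genes met this threshold, and at least 1.5-fold higher signal for 0, where 19.5% of all genes did. Among genes above background on both arrays these shares were 27.1% and 16.2%. After cyclic loess the first count was 8, beside 13.9% of all genes. At least 2-fold lower signal was found for 6 genes, Cdc45, Rfc3, Tyms, Prim2, Rfc4 and Gins2, which is 14.3% of the 42 beside 9.63% of all genes. At least 2-fold higher were 0, beside 12.8% of all genes and 9.75% of genes above background on both arrays. Cdc45 alone lay beyond the 2-fold line by more than 1 measuring SD, and 10 further genes fell short of that line by less than 1 SD, so membership of the 2-fold group is not firm. After cyclic loess Cdc45 was the one gene left past 2-fold, with a log2 ratio of -1.20, where 5.32% of all genes were at least 2-fold lower. Rfc3 then fell only just short of the line, with a ratio that rounds to -1. The SD of the log2 ratios among the 42 genes was 0.41, above the measuring SD of 0.30, while it was 1.26 over all genes. Probe by probe, 63 of the 89 probes were above background on both arrays and 59 of these were lower in PirBTM. By gene, 63.1% of the 7858 detected on both arrays had ratios below 0. As 14 replication genes had several of the 63 probes, the probe count overlaps the gene count and is not separate evidence. A further 5 of the 89 probes were above background in PirBTM only, and 4 of these, dim probes of Tk1, Rpa2 and Tyms, had ratios above 0.

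**Figure D1:**
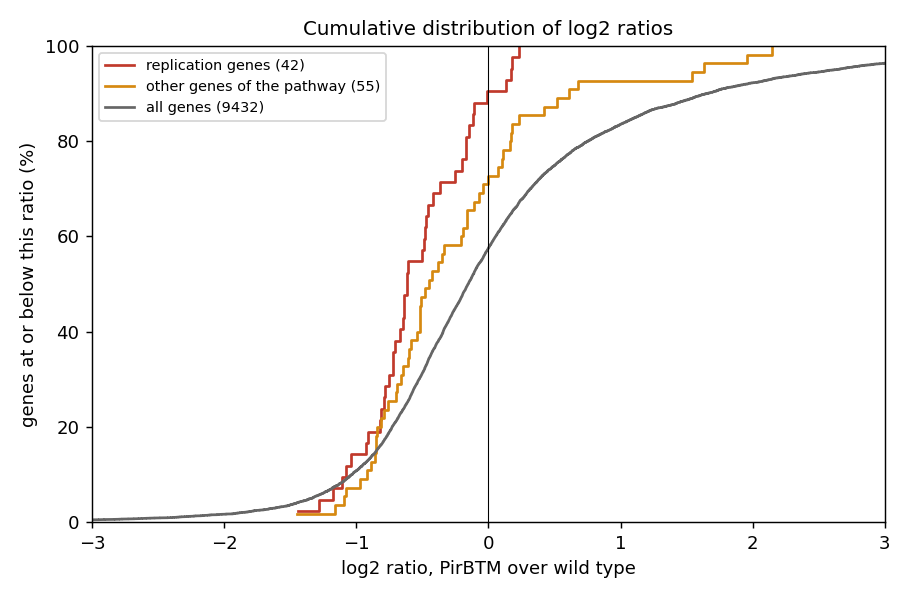
Cumulative share of genes (vertical axis, percent) at or below each log2 ratio of PirBTM over wild type (horizontal axis; values beyond -3 and 3 are outside the plot) for 42 replication genes, 55 other genes of the pathway and 9432 genes in all, each detected on either array. The curve of the replication genes lies left of that of all genes over most of its length and ends at 0.23, while at ratios under -1 the curves run close together.

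The promoters of 5 members are shown because replication genes are known E2F targets. These 5 include Cdc45, which had the lowest ratio, and Cdc6, which was not lower. They over-represent members with the motif given below. Of the 5, Cdc45 alone has no match in the stretch shown, while 34.2% of the members had a match in a longer window. Each stretch is the 200 bases just before the annotated start of the gene, read 5′ to 3′ on the gene's strand from RefSeq (GRCm38.p6): chr5:151651209-151651408 on the minus strand for Rfc3, chr8:75109309-75109508 on the plus strand for Mcm5, chr1:128359706-128359905 on the minus strand for Mcm6, chr11:98907951-98908150 on the plus strand for Cdc6 and chr16:18811973-18812172 on the minus strand for Cdc45. Capitals mark matches to an E2F-type motif, any of the words TTTCCCGC, TTTCGCGC, TTTGCCGC and TTTGGCGC on either strand, and neighbouring matches can overlap.
Rfc3: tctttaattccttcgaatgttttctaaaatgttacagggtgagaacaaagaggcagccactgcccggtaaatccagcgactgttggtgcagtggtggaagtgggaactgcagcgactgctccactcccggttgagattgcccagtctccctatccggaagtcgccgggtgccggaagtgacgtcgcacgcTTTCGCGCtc
Mcm5: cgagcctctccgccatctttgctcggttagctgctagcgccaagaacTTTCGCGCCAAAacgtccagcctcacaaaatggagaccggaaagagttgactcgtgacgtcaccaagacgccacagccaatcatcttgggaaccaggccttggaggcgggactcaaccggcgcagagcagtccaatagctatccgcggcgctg
Mcm6: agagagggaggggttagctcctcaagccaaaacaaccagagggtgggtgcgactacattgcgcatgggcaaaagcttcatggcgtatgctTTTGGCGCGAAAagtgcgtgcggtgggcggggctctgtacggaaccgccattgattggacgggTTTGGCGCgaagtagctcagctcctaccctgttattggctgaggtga
Cdc6: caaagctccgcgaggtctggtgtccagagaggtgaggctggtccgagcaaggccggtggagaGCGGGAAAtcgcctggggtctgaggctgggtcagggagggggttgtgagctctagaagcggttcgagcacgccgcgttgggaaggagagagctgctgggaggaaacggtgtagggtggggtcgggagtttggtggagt
Cdc45: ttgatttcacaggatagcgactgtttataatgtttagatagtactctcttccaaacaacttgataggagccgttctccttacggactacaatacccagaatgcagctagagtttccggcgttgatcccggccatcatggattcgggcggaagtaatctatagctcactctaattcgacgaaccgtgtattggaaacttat

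In Mcm5 and Mcm6 a pair of matches on opposite strands overlaps in 1 capital run, and Mcm6 has a further match nearer the start. The match of Rfc3 ends just before the start, and a second one, not shown, begins at the first transcribed base. Over windows of 300 bases, from 250 before the start to 50 after it, the motif was found in 13 of the 38 members that had a window (34.2%), and in 2.6% of all 27025 genes in the table. Ratios of members with and without the motif overlapped. The 11 members with it that were above background had log2 ratios from -1.28 to 0.17 with a median of -0.61, and 6 of them were at least 1.5-fold lower. The 23 without it had ratios from -1.44 to 0.23 with a median of -0.71, and 12 were at least 1.5-fold lower. A missing match says only that these letters are not in the window. The part of E2F sites in the ratios was not tested.

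**Figure D2:**
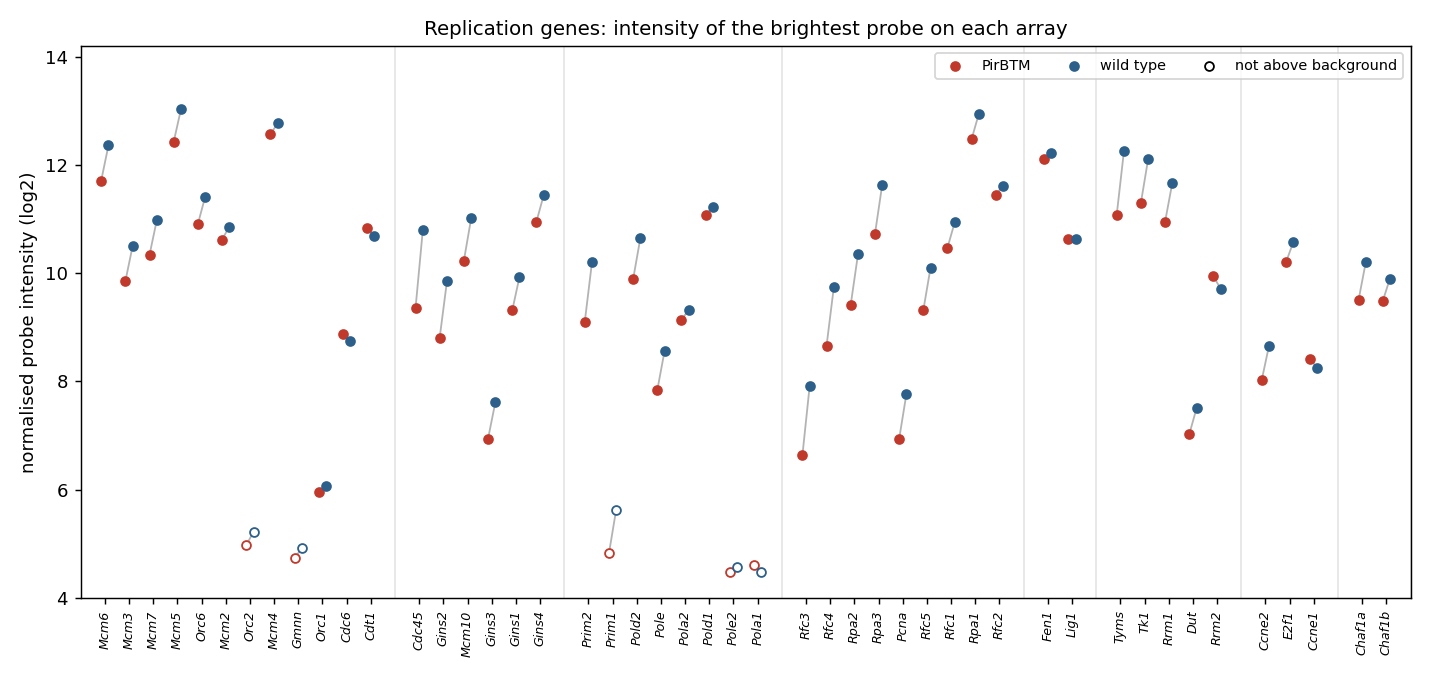
Normalised log2 intensity (vertical axis) of the brightest probe of each of the 47 replication genes on the PirBTM array (left point of each pair) and the wild-type array (right point), grouped by role in the order licensing, helicase activation, polymerases, clamp and loader, lagging strand, nucleotide supply, G1/S control and chromatin assembly. Open points were not above background. The right point is the higher one in 38 of the 42 pairs of filled points, and Cdt1, Cdc6, Rrm2 and Ccne1 run the other way.

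Licensing genes had a median log2 ratio of -0.37 over the 10 of 12 members above background, 8 of them below 0 and 4 at least 1.5-fold lower. Cdt1, which brings the ring to the origin, had a log2 intensity of 10.84 in PirBTM and 10.68 in wild type, a ratio of 0.17. Cdc6, the ATPase that loads the ring, had 8.87 in PirBTM and 8.74 in wild type. Both ratios were within the measuring SD of 0, and both stayed above 0 under every processing tried, from 0.16 to 0.40 for Cdt1 and from 0.10 to 0.40 for Cdc6. Of the origin recognition complex, Orc6 was lower, at 10.91 in PirBTM against 11.41 in wild type. Orc1 lay close to the lowest signal above background, at 5.95 in PirBTM and 6.06 in wild type, and its ratio of -0.11 cannot be told from 0. Orc2 and Gmnn, the inhibitor of Cdt1, were not above background on either array.

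The genes of the Mcm2 to Mcm7 ring all had ratios below 0, except for Mcm4 after cyclic loess (0.03), with a median of -0.62 and an SD among the 6 of 0.21, which is less than the measuring SD of a single probe. Mcm6 had a log2 intensity of 11.71 in PirBTM and 12.36 in wild type, and its 3 probes above background gave ratios from -0.81 to -0.65. Mcm7 had 10.34 in PirBTM and 10.98 in wild type, with a second probe at -1.08. Mcm3 had 9.85 in PirBTM and 10.50 in wild type, and Mcm5 had 12.43 in PirBTM and 13.03 in wild type. These 4 subunits were thus 1.52-fold to 1.57-fold lower. Mcm2, with a ratio of -0.25, and Mcm4, with -0.20, were within the measuring SD of 0. Mcm5 and Mcm6, whose promoters above carry overlapping E2F-type matches, had ratios of -0.61 and -0.65.

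All 6 genes of helicase activation had ratios below 0, 5 of them were at least 1.5-fold lower, and the median was -0.73. Cdc45, the subunit that completes the active helicase, had the lowest ratio of all 47 genes. Its scanner intensity before any normalisation was 856.9 in PirBTM and 1744 in wild type, and its log2 intensity was 9.35 in PirBTM and 10.79 in wild type, which is 2.71-fold lower. This value rests on 1 probe, since the second probe of Cdc45 was not above background; over the alternatives its ratio ran from -1.44 to -1.03. Gins2 was 2.06-fold lower, at 8.81 in PirBTM and 9.85 in wild type, and its 3 probes gave ratios between -1.04 and -0.87. The other GINS genes had ratios of -0.67 for Gins3, -0.62 for Gins1 and -0.49 for Gins4. Gins3 was dim, with a scanner intensity of 276.2 in PirBTM and 286.2 in wild type, and its ratio was -0.36 in the authors' deposited values and -0.37 with cyclic loess. Mcm10, which helps to activate the loaded helicase, had 10.23 in PirBTM and 11.01 in wild type, and its second probe gave -0.98 beside -0.78.

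**Figure D3:**
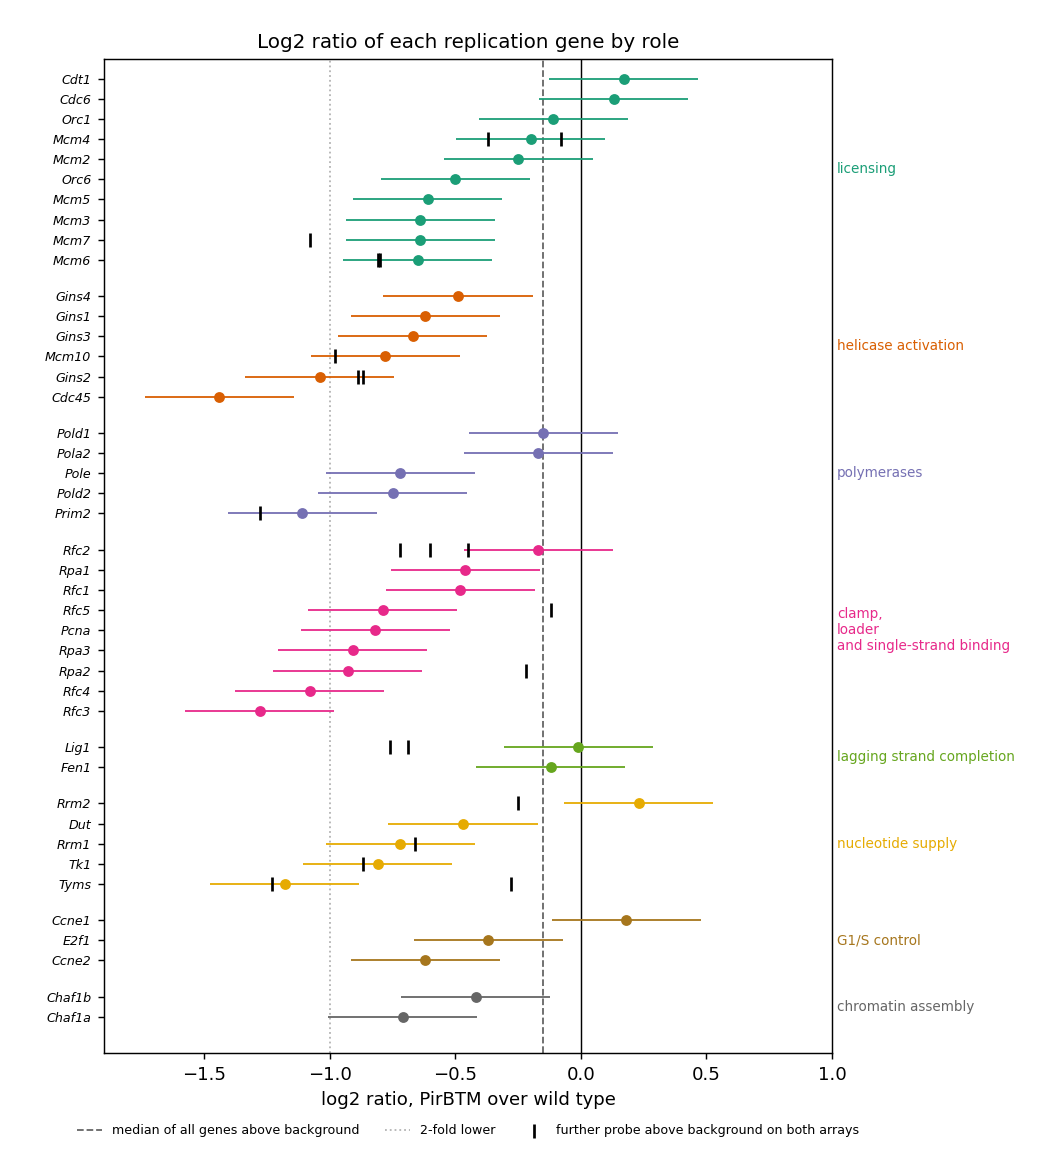
Log2 ratio of PirBTM over wild type (horizontal axis) for the 42 replication genes above background, grouped by role (right margin). Points are the brightest probe with a bar of 1 measuring SD (0.30) to each side, black ticks are further probes of the gene above background on both arrays, and vertical lines mark 0, the median of all genes (-0.15) and a 2-fold lower signal. All 6 genes of helicase activation and all 9 of the clamp, loader and single-strand binding group lie left of 0 (Rfc2 did not after cyclic loess), and the points right of 0 are Cdt1, Cdc6, Rrm2 and Ccne1.

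Among the polymerases, 5 of 8 genes were above background, all with ratios below 0, except for Pold1 and Pola2 after cyclic loess, and with a median of -0.72. Prim2, the large primase subunit, was 2.16-fold lower, at 9.10 in PirBTM and 10.21 in wild type, and its second probe gave -1.28 beside -1.11. Pold2, the second subunit of polymerase delta, had 9.89 in PirBTM and 10.65 in wild type, and Pole, the catalytic subunit of the leading strand polymerase, had 7.84 in PirBTM and 8.56 in wild type. Pold1, the catalytic subunit of polymerase delta, and Pola2, of polymerase alpha, had ratios of -0.15 and -0.17, close to the median of all genes. Pola1, Prim1 and Pole2 were not above background on either array. Prim1 came nearest, with a detection p-value of 0.233 in PirBTM and 0.0353 in wild type.

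The clamp, its loader and the single-strand binding proteins had a median of -0.82, with all 9 genes below 0 and 6 at least 1.5-fold lower. With the mean of each gene's probes above background on either array the median was -0.48, and with cyclic loess 8 of the 9 were below 0. Pcna, the sliding clamp, had a scanner intensity of 275.4 in PirBTM and 305.5 in wild type, a dim signal, and a log2 ratio of -0.82 that was -0.45 in the authors' deposited values. Of the loader subunits, Rfc3 was 2.43-fold lower, at 6.63 in PirBTM and 7.91 in wild type, and was similarly dim, with a ratio of -0.68 in the deposited values. Rfc4 was 2.11-fold lower, at 8.66 in PirBTM and 9.74 in wild type, but a dim second probe gave -0.13 and the mean of its probes -0.60, short of 2-fold. Rfc5 had a ratio of -0.79, but its second, dimmer probe gave -0.12. Rfc2 showed the reverse: its brightest probe gave -0.17, and the other 3 gave -0.72 to -0.45. Rfc1, the large subunit, had -0.48.

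The 3 genes of replication protein A, which coats single-stranded DNA, were lower. Rpa3 had 10.72 in PirBTM and 11.63 in wild type, and Rpa1 had 12.48 in PirBTM and 12.95 in wild type. Rpa2 had 9.42 in PirBTM and 10.35 in wild type, although a second probe gave -0.22 and the mean of its probes -0.27. Genes that finish the lagging strand were near 0 by their brightest probes: the flap nuclease gene Fen1 had a ratio of -0.12 and the ligase gene Lig1 of -0.01. For Lig1 the other probes above background on both arrays gave -0.76 and -0.69. A further dim probe of Lig1, above background in wild type only, gave -1.01, and the mean of its probes was -0.61. The probes of Lig1 thus disagree by more than the measuring error, and no single value can be given for it. Among probes above background on both arrays, the ratios of Tyms (0.95), Rpa2 (0.71) and Rfc5 (0.68) lay about as far apart as those of Lig1 (0.75).

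Nucleotide supply genes had a median of -0.72 over 5 members, with 3 at least 1.5-fold lower. Tyms, thymidylate synthase, had a scanner intensity of 2450 in PirBTM and 4717 in wild type and was 2.27-fold lower after normalisation, and its second probe gave -1.23 beside -1.18. Another probe of Tyms near background gave -0.28, and the mean of its probes above background on either array was -0.64, short of 2-fold. Tk1, the thymidine kinase of the salvage route, had 11.30 in PirBTM and 12.11 in wild type, and its second probe gave -0.87 beside -0.81. Tk1 also had a pair of dim probes above background in PirBTM only, and the mean of all its probes gave -0.22. The subunits of ribonucleotide reductase, which makes deoxynucleotides, did not share a direction by their brightest probes. Rrm1, the large subunit, had 10.95 in PirBTM and 11.67 in wild type, with -0.66 from a second probe beside -0.72. Rrm2, the small subunit made in S phase, had 9.94 in PirBTM and 9.71 in wild type, a ratio of 0.23, but its second probe gave -0.25. A further dim probe of Rrm2, above background in wild type only, gave -0.62, and the mean of its probes was -0.22. Of the 14 members with several probes above background on both arrays, Rrm2 was the only 1 whose probes differed in sign. Dut, which removes dUTP, had a ratio of -0.47, which was -0.17 with cyclic loess, -0.25 in the authors' deposited values and 0.06 on scanner intensities without normalisation.

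Of the G1/S regulators, cyclin E genes went apart: Ccne2 had 8.03 in PirBTM and 8.66 in wild type, while Ccne1 had 8.41 in PirBTM and 8.24 in wild type. The ratio of Ccne1, 0.18, was within the measuring SD of 0 and stayed above 0 in every alternative. E2f1, an activating E2F factor that is itself an E2F target, had 10.20 in PirBTM and 10.57 in wild type. The large and middle subunits of chromatin assembly factor 1, which places histones behind the fork, had ratios of -0.71 for Chaf1a and -0.42 for Chaf1b. Log2 intensities of the 42 genes ran from 5.95 to 12.57 in PirBTM and from 6.06 to 13.03 in wild type, below the top of the scale at 15.67, and their ratios showed little relation to intensity across genes, which share both arrays (Spearman's rho of 0.11, Pearson's r of 0.07, 42 genes).

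A further list of 59 genes of replication and its control was read in the same way, and most of these genes were lower as well. Of the 55 detected on either array, 40 had ratios below 0, with a median of -0.45. At least 1.5-fold lower were 19 of them (34.5%, beside 25.4% of all genes) and at least 1.5-fold higher 6 (10.9%, beside 19.5%). At least 2-fold lower were 4 (7.27%, beside 9.63% of all genes), a share no higher than that of all genes. They were Dtymk, the thymidylate kinase one step after Tyms and Tk1, at 11.03 in PirBTM and 12.19 in wild type; the histone chaperone genes Asf1b, 2.11-fold lower, and Asf1a, at least 2.44-fold lower; and E2f6, a repressive E2F factor, whose 5 probes above background gave ratios anywhere from -1.40 to 0.00. Tipin, of the fork protection complex, had -0.97, and Topbp1, which helps origins to fire, -0.89.

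At least 2-fold higher were 3 genes of this list (5.45%, beside 12.8% of all genes), a share below that of all genes. Samhd1, which breaks down deoxynucleotides and is high in myeloid cells, had 11.46 in PirBTM and 9.31 in wild type, 4.42-fold higher. E2f2, an E2F factor, had 12.29 in PirBTM and 10.32 in wild type, 3.90-fold higher, with 2.07 from a second probe beside 1.96. Rb1, the retinoblastoma gene, had 10.63 in PirBTM and 9.00 in wild type, 3.09-fold higher. Ratios of the other genes of these families went both ways. Among the E2F genes outside the 47 they ran from -1.09 for E2f6 to 1.96 for E2f2, with 0.68 for E2f4, and E2f5, above background in PirBTM only, was at least 1.63-fold higher. The relatives of Rb1 had 0.11 for Rbl1 and -0.70 for Rbl2.

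**Figure D4:**
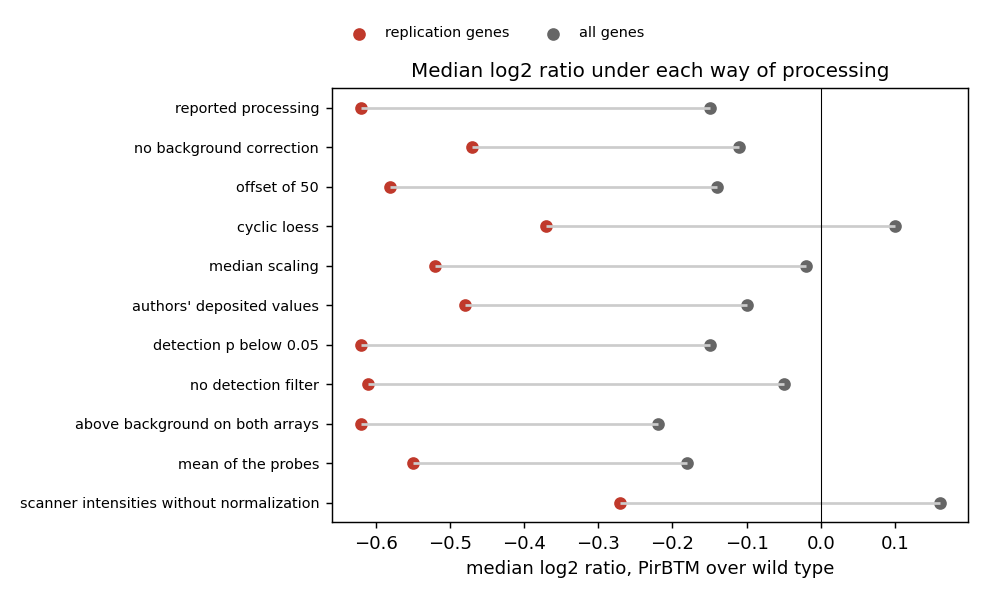
Median log2 ratio of PirBTM over wild type (horizontal axis) for the replication genes (red) and for all genes (grey) under the reported processing and each alternative (rows). The red point lies between -0.62 and -0.27 and left of the grey point in every row, while the grey point itself moves from -0.22 to 0.16.

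Most markers of other marrow cells were higher on the PirBTM array as well. Of the erythroid markers on the array, 10 of 10 were above background in PirBTM and 6 in wild type, with summed intensities of 115900 in PirBTM and 27300 in wild type. The macrophage markers were above background in 9 of 9 in PirBTM and 8 in wild type, with sums of 56180 in PirBTM and 6368 in wild type, and the B cell markers in 7 of 8 in PirBTM and 1 in wild type, with sums of 14570 in PirBTM and 1862 in wild type. Late neutrophil markers were above background in 9 of 10 in PirBTM and 8 in wild type, with sums of 258700 in PirBTM and 137900 in wild type. T and NK cell markers were above background in 7 of 10 in PirBTM and 3 in wild type, with nearly equal sums of 6006 in PirBTM and 5692 in wild type, and the bright members Cd8b1 (-0.44) and Prf1 (-0.05) were not higher in PirBTM. Megakaryocyte markers were above background in 7 of 7 in PirBTM and 4 in wild type, with sums of 3400 in PirBTM and 616.7 in wild type, and stromal markers in 5 of 8 in PirBTM and 3 in wild type, with sums of 22670 in PirBTM and 1107 in wild type. The stromal sum in PirBTM came mostly from Cxcl12 (14.05) and Bgn (12.23). Pecam1 had a ratio of 0.25, Col1a1 and Cdh5 were dim and above background in PirBTM only, and Col1a2, Col3a1 and Kdr were on neither array. Of the progenitor markers, Kit was bright on both arrays (11.02 in PirBTM and 11.72 in wild type), Cd34 was above background in wild type only, Cd48 in PirBTM only (6.24 in PirBTM and 4.96 in wild type) and Flt3 on neither array. The part of these other cells in the ratios of the replication genes, and in those of Samhd1, E2f2 and Rb1, was not tested.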

How the data were processed

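Total RNA of 2 samples was profiled on Illumina bead arrays. The authors deposited average signal intensities and detection p-values for 45281 probes per array, per the file headers; these intensities are linear and were not normalised (medians of 161.3 in PirBTM and 148.2 in wild type). They also deposited a second table of intensities whose columns share nearly the same distribution. The sources used here name no software for either. With limma 3.58.1, background was corrected by normexp with negative controls inferred from detection p-values (offset 16), followed by quantile normalisation and log2. The steps were tested on simulated data in which a small set of bright probes differed. That simulation does not cover dim genes or widespread differences between the arrays. The platform annotation named 1 gene for 34885 probes; all 47 members matched RefSeq by gene identifier. A gene was read by its brightest probe, and called above background where its detection p-value was under 0.01. For a gene detected on 1 array only, the fold is a lower limit ("at least"): the dim side was taken as its measured value or the lowest detected signal of that array, whichever was higher. In each role, the highest and lowest ratios, members at least 2-fold different and members with disagreeing probes were named. The members, lists and rules were chosen with earlier results of these data known. With 1 array per group, no test was made, and the number of arrays limits the precision.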

Additional observations from a re-analysis of the deposited data

How the results depend on the processing

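The results were recomputed under 9 alternatives and, added after seeing the data, on scanner intensities without normalization. The median of the replication genes stayed below that of all genes in each, and 0 genes were at least 2-fold higher in any. The count of the 42 genes at least 2-fold lower was 6 as reported, beside 9.63% of all genes. It was 2 in the authors' deposited values (beside 4.14%), 2 when no background was corrected (3.92%) and 3 with the mean of the probes (9.67%). It was 1 with cyclic loess (5.32%) and 1 with scanner intensities (1.97%). With the mean of the probes and with cyclic loess, the share of the replication genes was below that of all genes. The count at least 1.5-fold lower was 23 as reported, beside 25.4% of all genes. It was 8 with cyclic loess (beside 13.9%) and 6 with scanner intensities (beside 6.81%). On scanner intensities the median was -0.27, beside 0.16 for all genes, and Dut turned to 0.06. Cyclic loess moved the median of all genes to 0.10. Over all settings 30 genes stayed below 0 and 3 above 0 (Cdt1, Cdc6 and Ccne1), and 9 changed sign (Dut, Fen1, Lig1, Mcm4, Orc1, Pola2, Pold1, Rfc2 and Rrm2). The causes of these shifts were not tested. No paired analysis was possible because each group had 1 array. Signal over background limits the dim genes: without background correction the ratio was -0.46 for Pcna, beside -0.82, and -0.70 for Rfc3, beside -1.28.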
